A study of Mus musculus with 4 samples.

Results

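The genes examined here are 48 genes of DNA replication and its licensing, chosen by name from what they are known to do, with no value in the rule: the origin recognition complex, the factors that load and fire the replicative helicase, the polymerases and their clamp, and the enzymes that supply deoxynucleotides. All 48 were found among the 27179 genes with a deposited value, listed by NCBI gene number, and all 48 passed the filter on low values. RNA came from LICs (leukemia-initiating cells, Mac-1+/c-Kit+ cells sorted by FACS from leukemic bone marrow) in 4 libraries, 2 labelled wild type (WT) and 2 labelled CD274-/- (CD274-null), all C57BL/6 and 6 weeks of age. In both groups the leukemia was made by retroviral MLL-AF9, a fusion oncogene tagged with YFP, in Lin- fetal liver cells that were transplanted into lethally irradiated mice, so the WT libraries carry the oncogene too and the sorted cells may include cells of the host. No source states whether a library came from 1 mouse or a pool, or whether the libraries of a group came from separate mice, so the p-values measure only the spread between these libraries.

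Cells license each replication origin once per cycle. In late mitosis and G1 the origin recognition complex, with Cdc6 and Cdt1, loads the MCM helicase onto DNA as an inactive ring. At the start of S phase kinases, among them Cdc7 with its activator Dbf4, convert the ring into the working helicase together with Cdc45 and the GINS complex, and geminin then blocks further loading. Many of these genes are transcribed in G1 and S phase under E2F factors, which the retinoblastoma protein holds back until cyclin-dependent kinases act. They are widely used as RNA markers of cycling cells, including in leukemia and in marrow progenitors, and the study asked what changes in LICs that lack CD274, a surface ligand known for its part in immune checkpoints.

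The promoter stretches below come from a few of these genes. Letters of the kind that E2F factors bind are marked where they occur, and no binding was measured. The letters searched were TTTGGCGC, TTTCGCGC, TTTCCCGC and TTTGCCGC, on both strands, in the RefSeq windows of GRCm38.p6 that reach from 250 bases before to 50 bases after each annotated start. Of the 48 genes, 40 had a window and 14 of these (35.0%) held such a match, against 4.91% of the 9588 tested genes with a window and 2.26% of all 32851 windows. The genes with a match were Orc1, Orc3, Cdc6, Cdt1, Mcm3, Mcm5, Mcm6, Mcm7, Gins3, Pola1, Pold1, Pole2, Rfc3 and Lig1. The 160 bases that end just before the start are printed 5′ to 3′ on the strand of the gene, with matches in capitals. Orc1, Cdc6, Mcm5, Mcm6 and Pola1 stand for 5 roles or subunits with a match before the start, and Rrm2 is shown as the gene with the largest difference between the WT libraries, without a match in its window. These 6 were chosen after their values were seen.
Orc1, chr4:108579294-108579453, plus strand: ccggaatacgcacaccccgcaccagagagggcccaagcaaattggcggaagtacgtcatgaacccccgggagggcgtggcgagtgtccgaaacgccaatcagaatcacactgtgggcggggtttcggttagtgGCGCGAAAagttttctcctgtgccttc
Cdc6, chr11:98907991-98908150, plus strand: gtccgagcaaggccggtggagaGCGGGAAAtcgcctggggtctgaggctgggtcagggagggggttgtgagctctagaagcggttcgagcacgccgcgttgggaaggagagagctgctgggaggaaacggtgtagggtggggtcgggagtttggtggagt
Mcm5, chr8:75109349-75109508, plus strand: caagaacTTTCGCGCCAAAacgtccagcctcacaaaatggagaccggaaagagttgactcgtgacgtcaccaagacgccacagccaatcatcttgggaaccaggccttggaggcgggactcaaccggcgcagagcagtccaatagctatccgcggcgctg
Mcm6, chr1:128359706-128359865, minus strand: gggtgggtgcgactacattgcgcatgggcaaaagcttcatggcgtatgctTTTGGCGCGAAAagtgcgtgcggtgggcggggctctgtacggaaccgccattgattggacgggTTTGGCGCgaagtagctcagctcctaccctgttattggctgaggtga
Pola1, chrX:93632156-93632315, minus strand: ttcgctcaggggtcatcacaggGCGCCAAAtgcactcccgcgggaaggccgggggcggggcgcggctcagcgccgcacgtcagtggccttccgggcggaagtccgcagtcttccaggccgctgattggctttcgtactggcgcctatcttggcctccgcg
Rrm2, chr12:24708094-24708253, plus strand: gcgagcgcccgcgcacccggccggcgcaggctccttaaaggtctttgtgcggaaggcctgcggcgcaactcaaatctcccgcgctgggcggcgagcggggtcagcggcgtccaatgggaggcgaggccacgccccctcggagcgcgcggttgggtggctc

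In Mcm5 and in the distal match of Mcm6 a match on each strand overlaps the other, so that 1 run of capitals holds both. Pold1, 1 of the 2 genes with an unadjusted p under 0.05 in the comparison of genotypes, held its match after the start, from base 40 to base 47, in the 20-base stretch chr7:44548766-44548785 on the minus strand.
Pold1, end of the window: tatcttgtgGCGGGAAAagc
The other of these genes, Rfc2, is named only. For CCAAT, the letters of the NF-Y box, 24 of the 40 windows held a match (60.0%) against 43.5% of the tested genes, and for TTTGAA, a form of the CHR element of mitotic genes, 7 did (17.5%) against 14.6%. A match is a description of the letters in these windows and not a measured binding site.

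**Figure D1:**
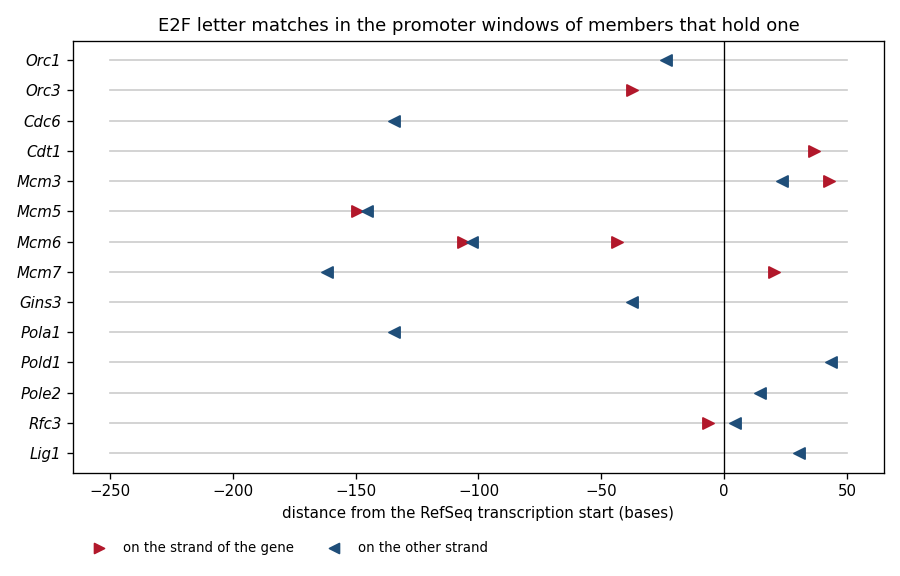
Position of E2F letter matches (x axis, bases from the RefSeq start, the window running from 250 before to 50 after) in the 14 genes that hold one, with the direction of each triangle giving the strand. Matches lie on both sides of the start, and Mcm6 holds 3.

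The 4 libraries held 8452662 to 11048767 reads on genes, recovered from the deposited FPKM (fragments scaled by gene length and library size), and each of the 48 genes rested on 79 to 5283 reads per library. Cd274 itself had an FPKM of 2.80 and 0.945 in WT against 1.43 and 2.29 in CD274-null, so the deleted gene did not separate the labels, and every direction below rests on the labels alone. Of the markers of the sort, Itgam (Mac-1) lay between 100.2 and 174 and Kit between 6.59 and 19.5, with the lowest Kit in WT replicate 1. Levels below are FPKM, which is scaled by length, and differences are log2 fold changes of CD274-null minus WT on log2(FPKM + 0.5), from limma on the 13230 genes whose mean FPKM was 0.5 or more.

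The replication genes were expressed at a high level in all 4 libraries. Their mean FPKM over the libraries had a median of 40.3, against 12.03 over all tested genes, and single values ran from 2.57 (Orc1 in WT replicate 2) to 189 (Rrm2 in WT replicate 1). By mean level Mcm6, Pcna, Mcm3, Mcm5 and Rrm2 were at the top, and Orc1, Orc4, Gins3, Cdc6 and Pola1 were near the bottom.

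**Figure D2:**
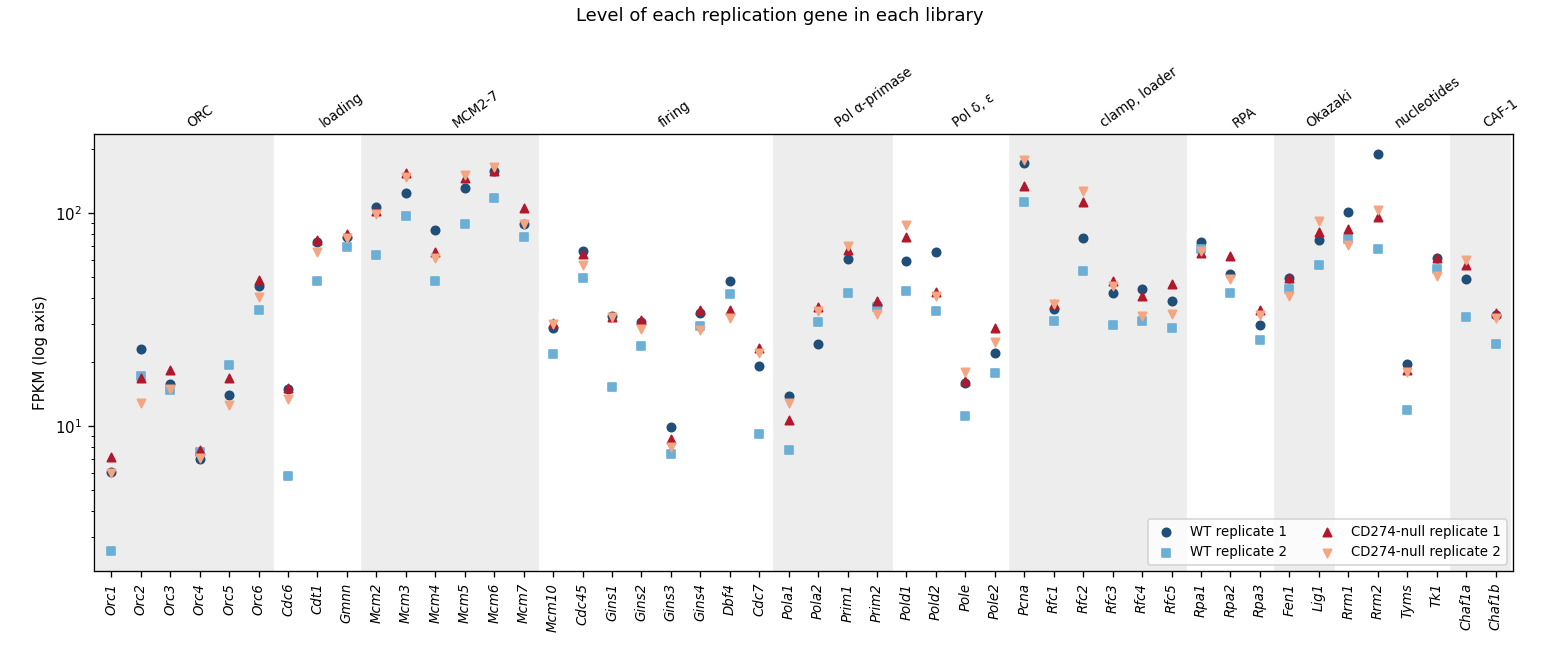
FPKM (log axis) of the 48 replication genes, grouped by role along the x axis, with 1 symbol per library. The squares of WT replicate 2 are the lowest symbol for 37 of the 48 genes.

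Between the genotypes, the replication genes differed little beyond the spread of the libraries. At an unadjusted p under 0.01 and a fold above 1.5, the thresholds the study set for candidate genes, 1 of the 48 genes was called, Rfc2, against 3.63% of all tested genes (2.39% called higher and 1.24% lower). At an unadjusted p under 0.05, 2 genes were called, Rfc2 and Pold1, both higher in CD274-null, which is 4.17% of the genes against 13.7% of all tested genes. No replication gene had an adjusted p under 0.05 from limma with Benjamini-Hochberg adjustment, which 0.0756% of all tested genes had. The log2 fold change was above 0 for 35 of the 48 genes against 51.1% of all tested genes, with a median of 0.21 against 0.01. Both CD274-null values lay above both WT values for 17 genes (35.4% against a background of 25.6%) and below them for 3 genes, Orc2, Dbf4 and Rpa1 (6.25% against 21.8%). These counts rest on WT replicate 2, as given further on: with that library left out, 24 of the 48 log2 fold changes were above 0 and their median was 0.00. With 2 libraries against 2, an exact permutation test of a single gene cannot give a two-sided p below 0.33.

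**Figure D3:**
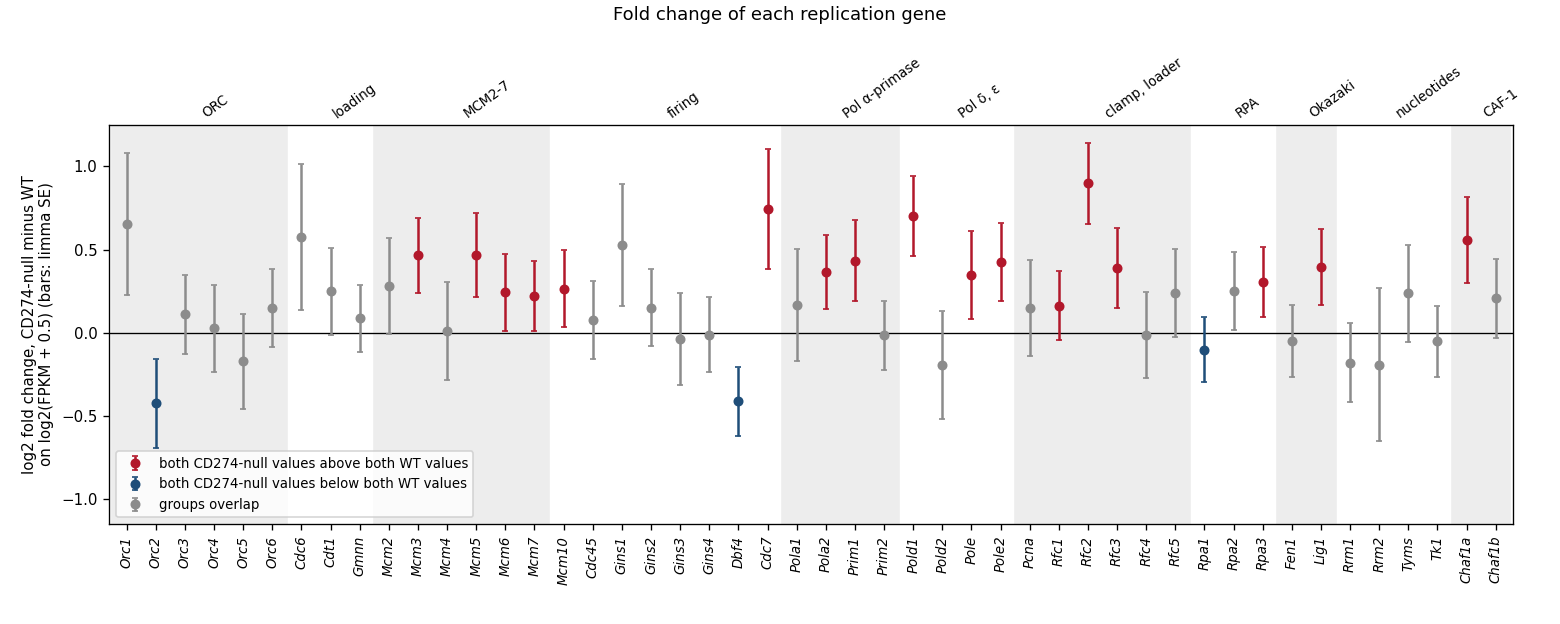
Log2 fold change of CD274-null minus WT (y axis, on log2(FPKM + 0.5), bars are the limma standard error) for each replication gene, coloured by whether the 2 libraries of each group overlap. Rfc2 is the highest at 0.90 and Orc2 the lowest at -0.42.

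Rfc2 encodes a subunit of replication factor C, the complex that opens the sliding clamp and places it on DNA. It lies on chromosome 5 from 134582690 to 134598328. Its FPKM was 76.2 and 53.4 in WT against 113 and 126 in CD274-null, from 1338, 826, 1514 and 1909 reads. The groups did not overlap, with means of 64.8 ± 16.1 (SD, n = 2) in WT and 119.5 ± 9.56 (SD, n = 2) in CD274-null. The log2 fold change was 0.90 ± 0.25 (SE, unadjusted p = 0.00994 and adjusted p = 0.275 by limma), and it was 0.64 without WT replicate 2. Rfc2 passed neither threshold without CD274-null replicate 1 or 2, where its log2 fold change was 0.98 and 0.82 and the limma unadjusted p 0.0544 and 0.0842. The unadjusted p was just under the threshold of the candidates, and Rfc2 missed the candidate thresholds in 11 of the 12 other settings that kept all 4 libraries.

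Pold1 encodes the catalytic subunit of DNA polymerase delta, which copies the lagging strand (chromosome 7, 44532744 to 44548815). It had an FPKM of 59.5 and 43.1 in WT against 77.5 and 88.0 in CD274-null, and the groups did not overlap. The log2 fold change was 0.70 ± 0.24 (SE, unadjusted p = 0.0250 and adjusted p = 0.318 by limma). Without WT replicate 2 it was 0.47, with a limma unadjusted p of 0.0928, and without CD274-null replicate 1 or 2 it was 0.79 and 0.61, with a limma unadjusted p of 0.0815 and 0.144. Pold1 transcripts hold 61.0% G and C, and with each library corrected for GC content the log2 fold change was 0.43, with an unadjusted p of 0.114 from limma. Of the other subunits of polymerases delta and epsilon, Pole, the catalytic subunit of the leading strand enzyme, had 15.9 and 11.2 in WT against 16.2 and 18.0 in CD274-null, and Pole2 had a log2 fold change of 0.42 (limma adjusted p 0.462, and 0.27 without WT replicate 2). Pold2, the accessory subunit of polymerase delta, had the opposite sign to Pold1, with an FPKM of 65.9 and 34.7 in WT against 42.8 and 40.9 in CD274-null. Both CD274-null values of Pold2 lay between the WT values.

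The other clamp loader genes had smaller differences than Rfc2. Rfc1, the large subunit, had 35.5 and 31.1 in WT against 37.2 and 37.3 in CD274-null, a log2 fold change of 0.16. Rfc3 did not overlap either (log2 fold change 0.39, limma adjusted p 0.509) and was at 0.15 without WT replicate 2, while Rfc4 and Rfc5 overlapped, at -0.01 and 0.24, and at -0.26 and 0.03 without that library. Pcna, the sliding clamp that holds the polymerases on DNA and the highest gene of this role, had an FPKM of 172 and 113 in WT against 134 and 178 in CD274-null. Its groups overlapped, with a log2 fold change of 0.15 ± 0.29 (SE).

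The MCM helicase unwinds DNA at the fork as a ring of 6 different subunits, 1 of each. Mcm6 was the highest of them, with an FPKM of 157 and 118 in WT against 158 and 165 in CD274-null. Mcm5 had 131 and 88.6 in WT against 146 and 151 in CD274-null, and Mcm3 had 124 and 96.4 in WT against 155 and 148 in CD274-null. In these 3 subunits both CD274-null libraries lay above both WT libraries. Mcm2 had 107 and 63.4 in WT against 102 and 98.8 in CD274-null. Mcm7 had 88.9 and 77.6 in WT against 105 and 89.2 in CD274-null, and here the groups were separated by the small gap between 88.9 and 89.2. Mcm4 was the lowest, with 82.8 and 47.8 in WT against 65.4 and 61.4 in CD274-null. The order of the subunits was thus not the same in every library, but Mcm6 was above Mcm4 in all 4. The log2 fold changes of the 6 subunits ran from 0.01 (Mcm4) to 0.47 (Mcm3 and Mcm5), with adjusted p between 0.415 and 0.991 from limma. Without WT replicate 2 they were 0.28 for Mcm3, 0.19 for Mcm5, 0.12 for Mcm7, 0.04 for Mcm6, -0.10 for Mcm2 and -0.38 for Mcm4. The ratio of CD274-null replicate 2 to replicate 1 lay between 0.849 (Mcm7) and 1.04 (Mcm6), while WT replicate 1 exceeded WT replicate 2 by 1.15-fold (Mcm7) to 1.73-fold (Mcm4).

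Among the genes that choose and license origins, the subunits of the origin recognition complex went apart. Orc1, the subunit with the most cycle-dependent level, had an FPKM of 6.08 and 2.57 in WT against 7.17 and 6.03 in CD274-null, from 212, 79, 191 and 181 reads. WT replicate 2 was the low library, and the others lay together (log2 fold change 0.65 ± 0.42 SE, limma adjusted p 0.527, and 0.10 without WT replicate 2). Orc2 had 22.9 and 17.2 in WT against 16.8 and 12.8 in CD274-null, so that both CD274-null values were lower, by a gap of 17.2 to 16.8. Its log2 fold change of -0.42 ± 0.27 (SE; limma adjusted p 0.519) was the lowest of the 48 genes in the fit of all libraries, and it was -0.22 without WT replicate 1 and -0.63 without WT replicate 2, where other genes lay lower. Orc6, the highest of the complex, had 45.4 and 35.03 in WT against 48.7 and 40.4 in CD274-null, with overlap. Orc3, Orc4 and Orc5 had log2 fold changes of 0.11, 0.03 and -0.17 and overlapped as well.

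Cdc6, an ATPase that brings the helicase to the origin, had an FPKM of 15.0 and 5.79 in WT against 15.1 and 13.3 in CD274-null. Once again 3 libraries lay together and WT replicate 2 lay below them, and the log2 fold change of 0.57 had a standard error of 0.44 and was -0.08 without that library. Cdt1, its partner in loading, had 72.8 and 47.8 in WT against 74.8 and 65.9 in CD274-null. Gmnn, which encodes geminin, the inhibitor of Cdt1, had 77.3 and 69.6 in WT against 79.7 and 76.1 in CD274-null. Geminin was thus the steadiest of the 3, with a log2 fold change of 0.09 ± 0.20 (SE).

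Of the factors that fire origins, the kinase Cdc7 and its activator Dbf4 had opposite signs. Cdc7 had an FPKM of 19.1 and 9.19 in WT against 23.2 and 21.9 in CD274-null, from 653, 277, 607 and 646 reads. The log2 fold change was 0.74 ± 0.36 (SE; limma adjusted p 0.417), the second largest of the 48, and 0.24 without WT replicate 2. Dbf4 had 48.03 and 41.8 in WT against 35.02 and 32.2 in CD274-null, with a log2 fold change of -0.41 ± 0.21 (SE; limma adjusted p 0.432) and of -0.51 without WT replicate 2. Both genes separated the groups, in opposite directions, and neither passed the test. The difference between the 2 genes was not tested. Cdc45, which joins the helicase, had 66.3 and 49.5 in WT against 64.3 and 56.8 in CD274-null. Gins1, a subunit of the GINS complex, had 32.8 and 15.3 in WT against 32.6 in both CD274-null libraries. The remaining GINS genes, Gins2, Gins3 and Gins4, had log2 fold changes of 0.15, -0.04 and -0.01. They were at 0.33, 0.17 and 0.09 without WT replicate 1, and at -0.03, -0.24 and -0.11 without WT replicate 2. Mcm10, a scaffold at the fork, had 0.26, which was 0.07 without WT replicate 2.

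Polymerase alpha and primase lay the RNA and DNA primers that start each fragment. Prim1, the catalytic primase subunit, had an FPKM of 60.7 and 41.9 in WT against 66.9 and 69.7 in CD274-null (log2 fold change 0.43, limma adjusted p 0.472, and 0.17 without WT replicate 2). Prim2, the large primase subunit, had 36.8 and 36.1 in WT against 38.7 and 33.5 in CD274-null, and its log2 fold change was -0.02. Pola2 had 24.3 and 30.9 in WT against 36.2 and 34.7 in CD274-null, and it was 1 of the 3 genes, with Orc4 and Orc5, that were higher in WT replicate 2 than in WT replicate 1. Pola1, the catalytic subunit, overlapped.

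Replication protein A coats single-stranded DNA. Its largest subunit Rpa1 had an FPKM of 73.5 and 67.5 in WT against 65.1 and 66.1 in CD274-null, a log2 fold change of -0.10 ± 0.20 (SE), while Rpa2 and Rpa3 had 0.25 and 0.31, and 0.11 and 0.19 without WT replicate 2. Lig1, the ligase that joins Okazaki fragments, had 75.0 and 57.2 in WT against 81.0 and 91.6 in CD274-null (log2 fold change 0.39, limma adjusted p 0.484, and 0.20 without WT replicate 2). Fen1, the nuclease that trims them, had 49.7 and 43.8 in WT against 49.7 and 40.9 in CD274-null. Chaf1a, the large subunit of the factor that puts histones on new DNA, had 48.8 and 32.4 in WT against 57.2 and 60.5 in CD274-null (log2 fold change 0.56 ± 0.26 SE, limma adjusted p 0.403, and 0.27 without WT replicate 2). Its partner Chaf1b had a log2 fold change of 0.21, and of -0.01 without WT replicate 2.

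The genes of nucleotide supply were the role with the lowest median log2 fold change, -0.12, and none of the 4 separated the groups. Without WT replicate 1 the 4 values were all above 0, at 0.03 (Rrm1 and Tk1), 0.54 (Rrm2) and 0.58 (Tyms). Rrm2, the small subunit of ribonucleotide reductase, which makes deoxynucleotides and limits them through the cycle, had an FPKM of 189 and 68.0 in WT against 95.5 and 103 in CD274-null, from 4764, 1510, 1841 and 2243 reads. WT replicate 1 stood above and WT replicate 2 below both CD274-null values. The log2 fold change of -0.19 had a standard error of 0.46, the largest of the 48. Rrm1, the large subunit, had 101 and 75.6 in WT against 84.1 and 70.5 in CD274-null. Tyms, thymidylate synthase, had 19.4 and 11.9 in WT against 18.2 and 17.9 in CD274-null, and Tk1, thymidine kinase, had 61.3 and 54.6 in WT against 61.4 and 50.8 in CD274-null.

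The largest difference in these genes lay between the WT libraries. WT replicate 2 was the lowest of the 4 libraries for 37 of the 48 genes, against 24.2% of all tested genes. It was highest for 1, against 29.2% of all tested genes. The other libraries were lowest for 2 (WT replicate 1), 1 (CD274-null replicate 1) and 8 (CD274-null replicate 2). Against WT replicate 1, the level in WT replicate 2 was lower for 45 genes, against 44.5% of all tested genes. For 42 the exact 95% interval of the ratio, from the reads and for counting error only, lay below 1, against 26.0% of all tested genes. Rrm2 was 2.78-fold higher in WT replicate 1 than in WT replicate 2 (95% interval 2.62 to 2.94), Cdc6 2.59-fold (2.26 to 2.98), Orc1 2.36-fold (1.82 to 3.10), Gins1 2.14-fold (1.8 to 2.56) and Cdc7 2.07-fold (1.8 to 2.40). These intervals compare 2 libraries and not conditions. The median difference of WT replicate 2 minus WT replicate 1 was -0.41 on the log2 scale, where all tested genes had 0.06. Within the CD274-null pair it was -0.08, where all tested genes had -0.14. The summed FPKM of the 48 genes was 2677 and 1923 in WT against 2658 and 2593 in CD274-null, so that 3 libraries lay together.

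The summed level was lower in WT replicate 2 than in WT replicate 1 in every role, and differences between roles were not tested. The summed FPKM in WT replicate 2 relative to WT replicate 1 was 0.567 for nucleotide supply, 0.653 for polymerases delta and epsilon, 0.691 for Chaf1a and Chaf1b, 0.703 for the clamp and its loader, 0.712 for the MCM subunits, 0.735 for the firing factors, 0.746 for the loaders and their inhibitor, and 0.810 for the genes of Okazaki fragments. The low value of nucleotide supply came from Rrm2, and its 3 other genes had a ratio of 0.782. By the median log2 difference of their genes, the loaders were lowest at -0.60, ahead of nucleotide supply at -0.55. The ratio of summed FPKM was nearer to 1 for primase with polymerase alpha (0.859), the origin recognition complex (0.870) and replication protein A (0.871). All 6 MCM subunits, all 6 clamp genes and all 4 subunits of polymerases delta and epsilon had their lowest value in WT replicate 2. Of the 14 genes with an E2F letter match in their window, all 14 had their lowest value there, and of the 26 without one 17 did, while the median ratio of WT replicate 1 to WT replicate 2 was 1.36 and 1.33. The pattern was seen before the windows were split, so these counts carry no test.

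**Figure D4:**
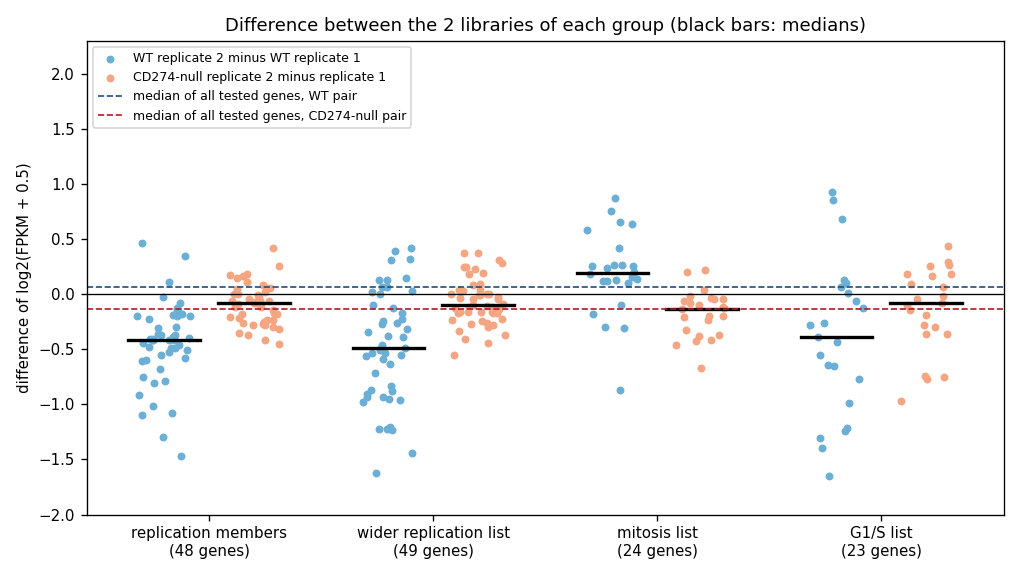
Difference between the libraries of each group (y axis, log2(FPKM + 0.5), replicate 2 minus replicate 1) for each gene of 4 lists, with black bars for list medians and dashed lines for the medians of all tested genes. The replication genes and the wider list lie below 0 in the WT pair (medians -0.41 and -0.49), and the mitosis list lies above it (0.19).

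A second list of 49 genes of the replication machinery, none of them among the 48, was lowest in WT replicate 2 for most genes as well. All 49 were tested, and that library was the lowest for 34, with a median difference of -0.49 from WT replicate 1. A list of 24 genes of mitosis and the spindle did not show it: WT replicate 2 was lowest for 3 and highest for 9, and the median difference was 0.19. In a list of 23 genes of the G1 to S transition, WT replicate 2 was lowest for 11 and below WT replicate 1 for 16, with a median difference of -0.39. Of all tested genes, 24.2% were lowest in WT replicate 2, 29.2% were highest there, and 44.5% were lower there than in WT replicate 1. The difference between the lists was not tested. Of the second replication list, 3 genes were higher and 2 lower in CD274-null at an unadjusted p under 0.05, against 8.04% and 5.70% of all tested genes. Top2a, the topoisomerase that untangles replicated DNA, had an FPKM of 66.3 and 47.0 in WT against 102 and 108 in CD274-null (log2 fold change 0.90, limma adjusted p 0.274). Pold3, a further subunit of polymerase delta, had 27.1 and 22.3 in WT against 40.2 and 43.0 in CD274-null (log2 fold change 0.74, limma adjusted p 0.289), and Wdhd1, which ties polymerase alpha to the helicase, had 32.1 and 20.5 in WT against 41.6 in both CD274-null libraries. Rrm2b, a subunit of ribonucleotide reductase induced by p53, had 6.26 and 6.90 in WT against 3.73 and 2.98 in CD274-null (log2 fold change -0.88, limma adjusted p 0.316), and Top2b, the form of the topoisomerase whose level depends less on the cycle, had a log2 fold change of -0.64. Rrm2b thus separated the groups where its relative Rrm2 did not. Of the G1 to S list, no gene was higher at that p, and 3 were lower and past the candidate thresholds: Cdk6, a kinase that acts on the retinoblastoma protein (102 and 112 in WT against 47.5 and 38.9), and its cyclin partners Ccnd2 (4.78 and 4.82 against 1.45 and 0.661) and Ccnd1 (3.85 and 7.79 against 1.76 and 0.847). Their limma adjusted p ran from 0.172 to 0.274, and the list was chosen with such results known. Of the mitosis list, Cdk1, the kinase that drives entry into mitosis, was higher at that p, with 33.1 and 35.5 in WT against 50.9 and 49.2 in CD274-null.

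Set against each WT library alone, the replication genes gave different counts. Against WT replicate 1 alone, with WT replicate 2 left out, 24 log2 fold changes were above 0 (53.6% of all tested genes) and 24 below, with a median of 0.00 where all tested genes had 0.05. Both CD274-null values were above that library for 18 genes and below it for 14, where all tested genes had 43.1% and 35.5%. At an unadjusted p under 0.05 from limma, Rfc2 was then higher, with 10.3% of all tested genes, and Pold2 and Rrm2 were lower, with 6.04%. No gene was then past the candidate thresholds upward (2.93% of all tested genes), and Rrm2 was past them downward (1.86%). Rrm2 had a log2 fold change of -0.92 in that comparison. Against WT replicate 2 alone, 42 of the 48 log2 fold changes were above 0 (48.6% of all tested genes), with a median of 0.42, and 13 genes were higher at an unadjusted p under 0.05 (8.13% of all tested genes): Orc1, Cdc6, Mcm2, Mcm3, Mcm5, Gins1, Cdc7, Prim1, Pold1, Rfc2, Rfc3, Lig1 and Chaf1a. None was lower (5.83%), and 5 passed the candidate thresholds (2.28% of all tested genes were past them upward). Both CD274-null values were above WT replicate 2 for 38 genes and below it for 4, where all tested genes had 37.9% and 39.4%. Rfc2 was the gene with an unadjusted p under 0.05 against either library. In such a fit the lone WT library is assumed to vary like the CD274-null pair.

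**Figure D5:**
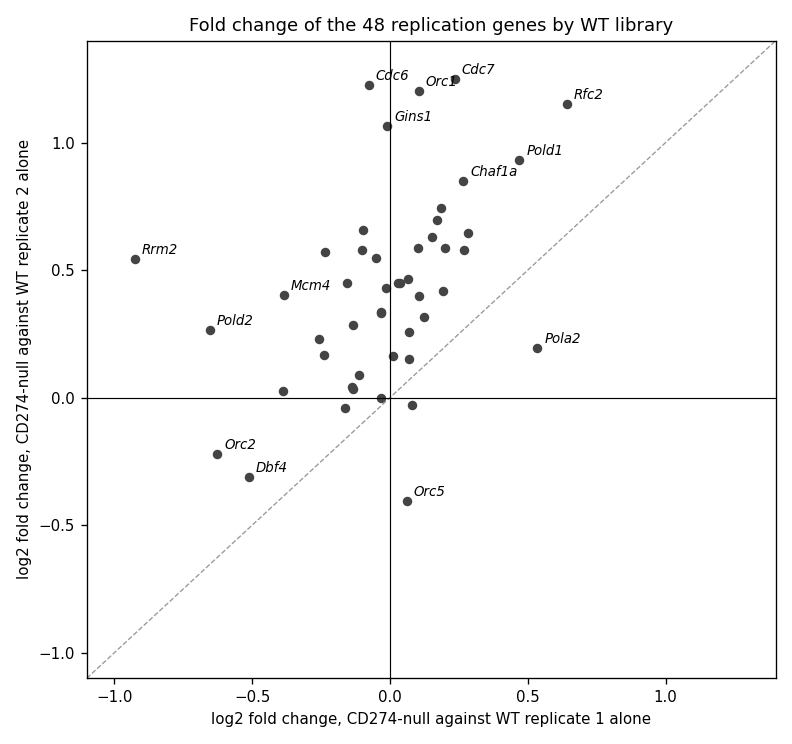
Log2 fold change of CD274-null against WT replicate 2 alone (y axis) and against WT replicate 1 alone (x axis) for the 48 replication genes, with a dashed line where both are equal. Nearly all points lie above the line, Rrm2 changes sign between the axes, and Rfc2 and Pold1 are above 0 on both.

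Some markers of other cells that the sort could hold also differed between the WT libraries, although a Mac-1+/c-Kit+ gate is meant to leave out lymphoid, plasma and erythroid cells and mature neutrophils and macrophages. Of the 10 neutrophil genes, among them S100a8, S100a9, Camp and Ngp, all were tested and 9 were lowest in WT replicate 2, where their summed FPKM was 8796 against 18350 to 43483 in the other libraries. Hemoglobin genes were highest there: the summed FPKM of 10 erythroid genes was 55.8 in WT replicate 2 and 0.701 to 5.49 elsewhere, while the defining marker Slc4a1 was listed at 0 in all 4 libraries. The summed FPKM of 10 B cell genes was 13.2 in WT replicate 1 and 37.1 to 40.9 in the other libraries, nearly all from Cd79b, with Pax5 listed at 0 in both WT libraries and at 0.0936 and 0.416 in CD274-null. For 8 plasma cell genes it was 186 and 75.8 in WT against 361 and 308 in CD274-null, where Xbp1, a factor that other secreting cells also use, had 177 and 66.8 in WT against 133 and 106 in CD274-null, and Igkc, an immunoglobulin light chain, had 8.64 and 7.98 against 214 and 189. For 8 T cell genes it was 3.06 to 5.40, and for 8 macrophage genes 147 and 145 in WT against 89.6 and 106 in CD274-null, of which Vcam1 made up 117 and 92.3 against 53.7 and 59.8. Without Vcam1 the macrophage sums overlapped, at 30.3 and 52.7 in WT against 35.9 and 45.8 in CD274-null. The part of these cells in the levels of the replication genes was not tested. In bulk RNA, fewer cells in cycle and less of these transcripts per cell cannot be told apart.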

How the data were processed

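RNA of sorted LICs was sequenced from TruSeq v2 libraries on a HiSeq2500; per the methods, the authors used Tophat with genome build GRCm38 (TopHat2 2.0.12 and CASAVA 1.8.2 in the submitters' processing notes). They deposited 1 FPKM value per gene and library; the counting tool, gene lengths and strand setting are not given in the sources used here. Libraries were matched to groups by title, and 0 sample columns were left unassigned. Symbols and coordinates came from RefSeq GRCm38.p6, which named 25275 of the 27179 genes.

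Within a gene, FPKM stands in ratios of whole reads once the relative depth is known (0.880, 0.764 and 0.861 of WT replicate 1 for WT replicate 2 and CD274-null replicates 1 and 2). Whole reads were recovered for 17083 genes (100% of the genes found in 2 or more libraries), in lowest terms, so printed reads are lower bounds.

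The genotypes were compared by limma 3.58.1 (R 4.3.3; moderated by eBayes, trend on). It ran on log2(FPKM + 0.5) of the 13230 genes whose mean FPKM was 0.5 or more, had no covariates, and was adjusted over all of them by Benjamini-Hochberg. Log2 fold changes on this scale understate the change of low genes. The fit and the recovery of reads were tested on simulated data. Ratios of libraries carry exact (Clopper-Pearson) 95% intervals from scipy 1.17.1 in Python 3.11.15. The members and lists were chosen with earlier results of these data known. Values in every library are given for genes with p under 0.05, the 10 largest absolute fold changes, the highest gene of each role and the MCM subunits; values of further genes, the count by lowest library and the printed promoters were chosen after the data were seen. Single values of some marker genes are not reported here.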

Additional observations from a re-analysis of the deposited data

How the results depend on the processing

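The alternatives were voom on recovered reads, GC correction alone or with the replicate block, the block alone, equal medians or quantiles, eBayes with no trend, plain linear models, pseudocounts of 1 and 0.1, filters at a mean FPKM of 5 or none, and the loss of each library. The number of replication genes past the candidate thresholds was 1 in the main analysis and with a pseudocount of 1, and 0 in the 11 other settings that kept all libraries. At an unadjusted p under 0.05 it was 2, but 1 without trend and with either GC correction, 0 without moderation and 3 with the replicate block alone. The count in the second replication list was 5, 3 without trend and without moderation, and 4 to 7 in the other settings with all libraries.

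When single libraries were left out, the candidates ranged from 0 to 5, the genes at p under 0.05 from 0 to 13, the second list from 0 to 14, the genes with both CD274-null values above WT from 18 to 38, and the median log2 fold change of the 48 genes from 0.00 to 0.42. Both ends of the last range came from the WT libraries, as given above. The count of genes with CD274-null above WT, 17 with all libraries, can only stay or rise when a library is left out. Without a CD274-null library, that count rests on the CD274-null library that remained. Of all tested genes, 25.6% were above with all libraries, 43.1% without WT replicate 2 and 37.9% without WT replicate 1. Shares for the other counts without a WT library are given above, and those without a CD274-null library were not taken. Between the fits without either WT library, 22 of the 48 genes differed in sign. Among the 21 genes named by rule, the log2 fold change changed sign over all libraries left out for Cdc45 (-0.13 to 0.29), Cdc6 (-0.076 to 1.22), Gins1 (-0.0094 to 1.07), Mcm2 (-0.10 to 0.66), Mcm4 (-0.38 to 0.40), Orc6 (-0.033 to 0.34), Pcna (-0.16 to 0.45) and Rrm2 (-0.92 to 0.54). With quantiles or medians made equal, Mcm4 was at -0.0022 and -0.0144. The cause was not tested. Of the other values for named genes in settings with all libraries, 244 kept their direction and their side of the unadjusted threshold of 0.05, not of that of the candidates. Of the rest, 5 rose above that threshold and 1 fell below it. Several settings leave the log2 fold change as it is, so its direction could not change there.

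The methods name no pairing of libraries by replicate number. Deviations of same-numbered libraries had a Pearson's r of -0.015 across genes, which cannot show whether they were handled together. With the replicate block, 3 replication genes were at p under 0.05, Cdc7 in addition, and 0 were candidates. WT replicate 2 was the lowest library for 37 genes, or 39 with either GC correction, in the settings that kept all libraries. Most of these settings cannot change the order of the libraries within a gene. With a CD274-null library left out, WT replicate 2 was the lowest of those left for 37 to 42 genes. These counts were added after the data were seen.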
